A study of Mus musculus with 6 samples.

Results

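The proteasome genes were examined in mouse two-cell embryos as the protein-coding genes with symbols of the Psma to Psmg series. The rule found 50 of the 53023 genes in the table, of which 21963 were protein-coding. By symbol, 8 were core alpha, 11 core beta, 6 ATPase, 14 lid and base, 5 activator, 1 inhibitor and 4 assembly genes. The remaining gene, Psmc3ip, encodes a meiotic recombination factor named for its binding to a proteasome ATPase. It is not a proteasome subunit and was kept apart, which left 49 genes.

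The proteasome is the protease that degrades proteins tagged with ubiquitin. Alpha subunits form the outer rings of its barrel-shaped core and gate the entrance, and beta subunits form the inner rings and carry the protease sites. A regulatory particle sits on the core, with a base whose ATPases unfold the substrate and a lid that removes the ubiquitin chain. In early embryos, the ubiquitin-proteasome system removes maternal proteins after fertilization.

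The embryos were of the ICR strain and were collected at 28 h post insemination (hpi). Non-injection embryos received no mRNA. PIASy-WT and PIASy-Mut embryos were injected between 1.5 and 3 hpi with 100 ng/µl of mRNA for PIASy, a ligase that attaches the small protein SUMO to other proteins, or for its ligase-inactive C335F form, and those with fluorescence at 9 hpi were kept. Each group had 2 libraries, each made from a pool of 5 embryos, and nothing in the labels tied a library to separate parents or days, so P-values measure the spread between these pools. The non-injection group had no injection of a control mRNA, and PIASy-Mut was the group that shared the injection with PIASy-WT.

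The depth was from 871663 to 1363928 fragments on genes per library. Pias4, the gene of PIASy, had an FPKM (a count of fragments scaled to gene length and depth) of 2.98 and 3.59 (non-injection), 862 and 611 (PIASy-Mut) and 610 and 579 (PIASy-WT). The summed FPKM of 10 oocyte marker genes was from 6765 to 9225 over the 6 libraries, and its members did not move together. Against non-injection, 7 of the 10 had fold changes above 0, up to 1.55 on the log2 scale for Bmp15 (adjusted P=0.0737 by limma), and 1, Zp3, fell (-1.57, adjusted P=0.0292, and -1.67 from PIASy-Mut, adjusted P=0.0240). Of the cumulus genes, Amhr2 fell against non-injection (-1.86, adjusted P=0.0427), at 3 and 4 fragments in PIASy-WT, while the other 2 tested were at 1.05 (Tnfaip6) and 0.29 (Cyp19a1) and did not pass. Markers of other cell types were low, with sums from 7.40 to 11.8 for 8 cumulus genes, of which 2 were at 0 throughout, from 1.96 to 5.89 for 4 sperm genes and from 2.83 to 19.1 for 3 blood genes. The sum of 6 two-cell stage markers was 1572 and 1534 (non-injection), 1607 and 1792 (PIASy-Mut) and 1070 and 755 (PIASy-WT). Against non-injection 5 of the 6 had fold changes below 0, Zscan4c was at 0.44, and 0 passed. Against PIASy-Mut all 6 were below 0, and only Tcstv3 passed (-1.39, adjusted P=0.0499 by limma). Zscan4d and Tcstv1 overlapped between PIASy-WT and the other libraries. The two-cell sum, Zp3 and Amhr2 were lower in both PIASy-WT libraries, alongside the proteasome genes described next, and their part in those levels was not tested. Levels are shares of each library, so that fewer transcripts of a gene and more RNA of other genes cannot be told apart, nor can fewer responding embryos in a pool and a smaller amount in each.

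Promoters of the genes that the results turn on are shown first. The 4 genes that fell in PIASy-WT against both other groups and had a promoter in the RefSeq table were Psma3, Psma6, Psmb5 and Psmd14, and Psmg1 was the gene that rose. The 250 bases before the transcription start are given 5′ to 3′ on the strand of the gene, from assembly GRCm38.p6. They lie at chr12:70974373-70974622 on the plus strand for Psma3, chr12:55383972-55384221 on the plus strand for Psma6, chr14:54617996-54618245 on the minus strand for Psmb5, chr2:61711444-61711693 on the plus strand for Psmd14 and chr16:95990961-95991210 on the minus strand for Psmg1. Capitals mark matches on either strand to TGACNNNGC, the core of the antioxidant response element that NFE2L1 binds at proteasome genes, or to CCAAT, the box bound by NF-Y, which reads ATTGG on the other strand.
Psma3: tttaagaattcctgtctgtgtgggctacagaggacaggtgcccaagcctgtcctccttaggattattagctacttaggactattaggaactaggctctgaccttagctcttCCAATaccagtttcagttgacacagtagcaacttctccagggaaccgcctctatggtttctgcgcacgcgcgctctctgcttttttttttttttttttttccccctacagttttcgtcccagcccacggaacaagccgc
Psma6: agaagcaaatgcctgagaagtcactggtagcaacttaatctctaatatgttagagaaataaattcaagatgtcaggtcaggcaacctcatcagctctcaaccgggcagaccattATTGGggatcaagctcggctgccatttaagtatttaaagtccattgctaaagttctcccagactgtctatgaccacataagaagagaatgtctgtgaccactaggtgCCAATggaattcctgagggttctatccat
Psmb5: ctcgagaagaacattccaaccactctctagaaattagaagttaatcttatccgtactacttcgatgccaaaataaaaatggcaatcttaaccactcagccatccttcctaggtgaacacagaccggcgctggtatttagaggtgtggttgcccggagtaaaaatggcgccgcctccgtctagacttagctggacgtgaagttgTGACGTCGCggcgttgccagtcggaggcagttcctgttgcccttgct
Psmd14: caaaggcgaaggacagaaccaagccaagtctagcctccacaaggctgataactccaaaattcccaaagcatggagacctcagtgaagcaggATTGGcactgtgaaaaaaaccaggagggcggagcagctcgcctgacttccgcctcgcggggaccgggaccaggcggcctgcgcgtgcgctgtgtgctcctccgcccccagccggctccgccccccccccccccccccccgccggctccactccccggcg
Psmg1: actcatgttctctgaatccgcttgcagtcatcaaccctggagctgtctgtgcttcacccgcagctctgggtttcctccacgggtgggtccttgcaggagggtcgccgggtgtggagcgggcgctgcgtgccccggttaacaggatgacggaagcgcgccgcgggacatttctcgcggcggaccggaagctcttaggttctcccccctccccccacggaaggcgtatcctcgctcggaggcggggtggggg

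Promoters were found for 42 of the 50 genes, and those of Psma8, Psmb1, Psmb2, Psmb7, Psmc3, Psmd3, Psmd7 and Psmg2 were not matched. In windows from 250 bases before to 50 after the start, TGACNNNGC was present in 6 of the 42 promoters (14.3%) and in 12.4% of the 32851 promoters in the table. The 6 genes were Psmb5, Psmb6, Psmc6, Psmd9, Psmd12 and Psme4, and only Psmb5 of these passed a test. Not every matched start was near that of the counted gene, with 58777 bases between them for Psmd9, 4006 for Psmd5 and 3877 for Psmb11. In Psmb5 the match TGACGTCGC began 47 bases before the start. CCAAT was present in 15 of 42 promoters (35.7%) and in 37.4% of all promoters, and in 4 of the 6 matched promoters of genes that fell (Psma3, Psma6, Psmc1 and Psmd14). Psma3 and Psmd14 each held 2 of their 3 matches after the start, outside the printed bases, and those of Psmd14 overlapped each other. Psmg1 held neither motif. These matches are letters in a window, and binding was not measured.

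Levels of the subunits differed widely within each part of the complex. Averaged over the 6 libraries, Psma6 was the highest proteasome gene at an FPKM of 171.5, followed by Psmb2 at 164 and Psmb1 at 152. The lowest constitutive alpha gene was Psma7 at 15.8 and the lowest constitutive beta gene Psmb3 at 8.60. The ATPase genes ranged from 7.98 for Psmc4 to 38.8 for Psmc1, and the lid and base genes from 2.67 for Psmd13 to 56.2 for Psmd7. Among activators, Psme4 was highest at 73.4, and among assembly genes Psmg1 was highest at 21.7 and Psmg3 lowest at 2.28. The order changed with the group, since the highest gene by group mean was Psmb1 in non-injection (236), Psma6 in PIASy-Mut (252) and Psmb2 in PIASy-WT (123). In PIASy-WT the lowest constitutive alpha and beta genes were Psma3 (16.9) and Psmb5 (2.16), and Psmg2 exceeded Psmg1 in both other groups. Neighbours in the order over 6 libraries, such as Psma6, Psmb2 and Psmb1, overlapped between libraries. The 2 libraries of a group differed by a median of 0.31 for non-injection, 0.55 for PIASy-Mut and 0.32 for PIASy-WT on the scale of log2(FPKM + 1), over the 47 of the 50 genes that passed the filter on low values. All 16100 genes that passed it differed by 0.37, 0.62 and 0.37. The proteasome genes also tended to shift together between replicates. Replicate 1 of non-injection was the higher for 12 of the 47, and the median of replicate 1 minus replicate 2 was -0.27. For the PIASy-Mut pair 34 were higher in replicate 1 (median 0.29), and the PIASy-WT pair had 33 (median 0.16). Over all genes these medians were -0.05, 0 and 0. Later counts of proteasome genes that lie on one side are thus not counts of independent genes.

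Summed over their genes, the core, the ATPases and the lid were lower in both PIASy-WT libraries than in the other 4. The sum of the Psmg assembly factors was higher, which rested on Psmg1. The summed FPKM of the 8 lid genes was 308 and 325 (non-injection), 493 and 254 (PIASy-Mut) and 111 and 96.3 (PIASy-WT). The 7 constitutive alpha genes summed to 509 and 597, 687 and 409, and 238 and 203 in the same order of libraries. The 7 constitutive beta genes summed to 502 and 592, 562 and 428, and 270 and 211. In all 3 sets, both PIASy-WT libraries lay below the other 4, with no overlap. The 6 ATPase genes summed to 126 and 159, 174 and 145, and 77.7 and 81.2, again without overlap. The 4 Psmg assembly genes, which help to build the alpha ring and are not part of the finished particle, summed to 47.4 and 51.9, 39.5 and 49.0, and 77.7 and 61.2, with PIASy-WT above the other 4 libraries. Without Psmg1 this sum was 33.2 and 34.2, 29.4 and 36.2, and 39.6 and 24.3, and the PIASy-WT pair held both the highest and the lowest library. The sum of the 3 non-ATPase base genes was 57.7 and 86.8, 95.6 and 75.4, and 59.9 and 52.5, with PIASy-WT below PIASy-Mut but overlapping non-injection. These sums are dominated by their most abundant members and carry no test. After scaling to the upper quartile, the lid summed to 305 and 299.5, 403 and 224, and 141 and 126, and the lid, alpha, beta and ATPase sums still did not overlap. The non-ATPase base sums of PIASy-WT (76.5 and 68.5) then overlapped those of PIASy-Mut (78.2 and 66.5) as well.

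**Figure D1:**
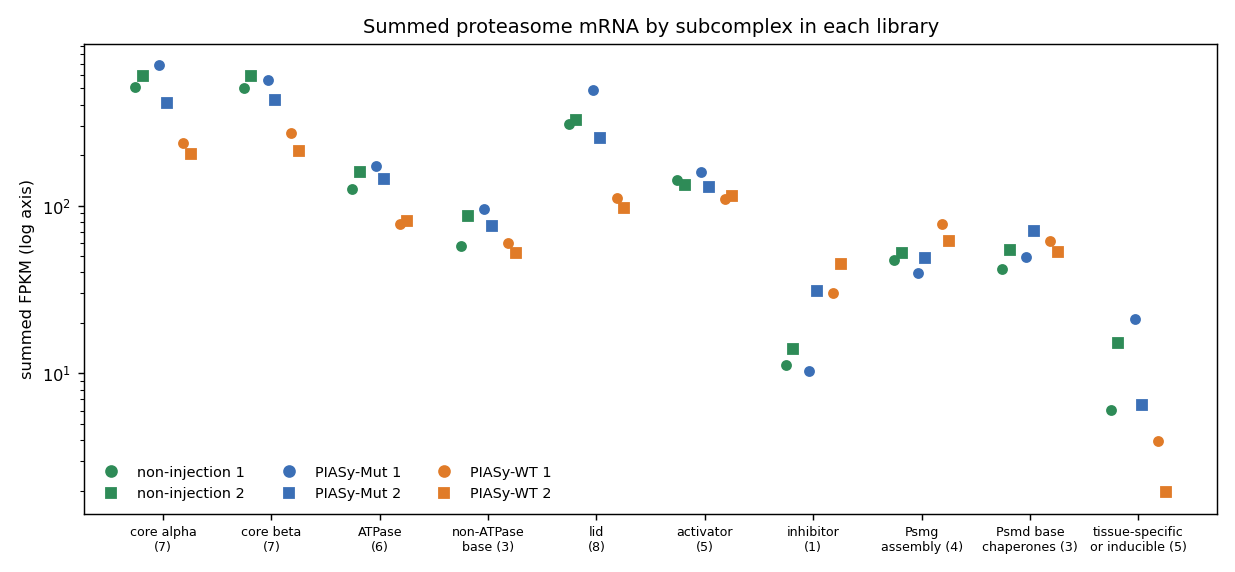
Summed FPKM (log axis) of each functional set of proteasome genes in each of the 6 libraries, with the number of genes in brackets; circles are replicate 1 and squares replicate 2. The lid lies at 111 and 96.3 in PIASy-WT against 254 to 493 elsewhere, and the Psmg assembly genes, through Psmg1, at 77.7 and 61.2 against 39.5 to 51.9.

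Within a library, the balance between these sets can be read without scaling between libraries. The ratio of summed alpha to summed beta FPKM was 1.02 and 1.01 (non-injection), 1.22 and 0.955 (PIASy-Mut) and 0.878 and 0.961 (PIASy-WT), so the ranges of PIASy-WT and PIASy-Mut overlapped. The ratio of lid to core was 0.305 and 0.273, 0.394 and 0.303, and 0.218 and 0.232. Both PIASy-WT libraries had the lowest values of this ratio. The ratio of Psmg assembly genes to core was 0.0469 and 0.0437, 0.0316 and 0.0585, and 0.153 and 0.148, with PIASy-WT above every other library. Without Psmg1 it was 0.0329 and 0.0287, 0.0235 and 0.0432, and 0.0779 and 0.0588, where the higher values of PIASy-WT go with its lower core. These ratios describe 6 libraries and carry no test.

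**Figure D2:**
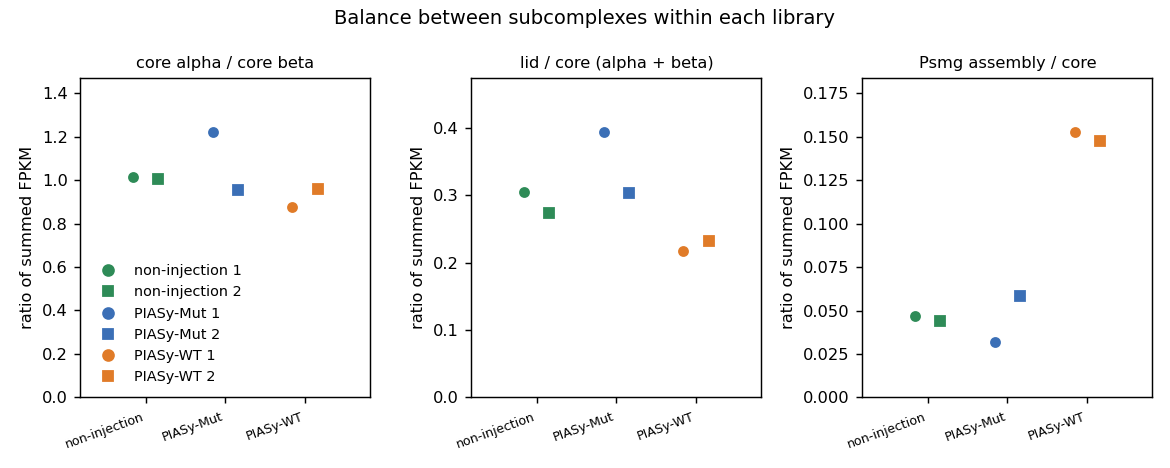
Ratios of summed FPKM within each library (linear axes from 0) for alpha over beta, lid over core and Psmg assembly over core, with circles for replicate 1 and squares for replicate 2. The assembly ratio is 0.153 and 0.148 in PIASy-WT and at most 0.0585 in the other 4 libraries.

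The first comparison asked which proteasome genes differ between PIASy-WT and non-injection embryos. Of 47 genes tested, 6 fell (Psma3, Psma6, Psmb1, Psmb5, Psmd7 and Psmd14) and 0 rose at an adjusted P of at most 0.05 by limma on log2(FPKM + 1), against 5.76% lower and 1.03% higher of all genes tested. An unadjusted P under 0.05 was reached by 27 of the 47 and by 4546 of 16100 genes. With the added limit of 2 on the size of the log2 fold change, 5 of the 6 stayed and 0 rose, against 3.81% and 0.602% of all genes. The median log2 fold change was -1.00 over the proteasome genes and 0.01 over all genes tested. It was below 0 for 38 of 47 (49.1% of all genes) and at -1 or less for 23 (21.1% of all genes), and 3 genes were at 1 or more (13.5% of all genes). Psmc3ip was among the tested genes but passed in neither comparison, and without it the median was -0.98 over 46 genes.

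The second comparison set PIASy-WT against PIASy-Mut, which shares the injection and differs in the ligase. Here 7 genes fell (Psma3, Psma6, Psmb5, Psmc1, Psmd6, Psmd7 and Psmd14) and 1 rose (Psmg1), against 6.01% lower and 0.82% higher of all genes tested. An unadjusted P under 0.05 was reached by 25 of the 47 and by 4456 of 16100 genes. The median log2 fold change was -0.82, beside -0.03 over all genes, and it was below 0 for 38 genes (51.3% of all genes). Values of -1 or less were found for 22 genes (21.6% of all genes) and of 1 or more for 2 (12.7% of all genes). Of the 7 genes that fell, 4 also passed the fold limit, and Psmg1 did not (4.06% and 0.516% of all genes). The PIASy-WT libraries are common to these comparisons, so the calls are not independent of each other. Both PIASy-WT libraries lay below the other 4 for 32 of the 47 genes (24.4% of all genes), and above them for 3 (19.9% of all genes), which were Psma7, Psme3 and Psmg1.

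PIASy-Mut and non-injection differed in none of the proteasome genes by limma, with 0 lower and 0 higher, against 0.0% and 0.00621% of all genes. Unadjusted P-values under 0.05 were found for 2 of 47 genes, Psma5 and Psmc6, and for 718 of 16100 genes. The log2 fold changes ran from -0.94 to 0.90 with a median of 0.09, and 20 of 47 were below 0 (45.4% of all genes). No gene reached 1 in either direction, where 4.65% of all genes were at -1 or less and 5.14% at 1 or more. The lid had a median of 0.14 in this comparison and the constitutive beta genes -0.15.

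The counts of calls depended on single libraries and on scaling. Without either non-injection library or either PIASy-WT library, 0 proteasome genes passed in either comparison, and of all genes tested 0 fell and at most 1 rose. Without the library PIASy-Mut 1, 16 proteasome genes fell against non-injection and 0 against PIASy-Mut, and without PIASy-Mut 2, 17 fell in each, beside Psmc3ip in these 3 counts. The calls over all genes moved with them, from 928 of 16100 lower against non-injection to 1866 of 15316 without PIASy-Mut 1 and 1884 of 15360 without PIASy-Mut 2. Against PIASy-Mut they went from 968 of 16100 to 0 of 15316 and 2032 of 15360. Under quantile or upper quartile scaling, 3 genes fell (Psmb5, Psmd7 and Psmd14) and 1 rose (Psmg1) in both comparisons. Of all 16100 genes, 699 and 490 fell and 233 and 124 rose under quantile scaling, and 588 and 343 fell and 461 and 289 rose under upper quartile scaling. Upper quartile scaling moved the median of all genes to 0.31 against non-injection and 0.38 against PIASy-Mut, and the proteasome medians stood at -0.61 and -0.50. Under quantile scaling the all-gene medians were 0.12 and 0.11 and the proteasome medians -0.77 and -0.77. Relative to these shifts the proteasome genes kept medians below those of all genes.

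**Figure D3:**
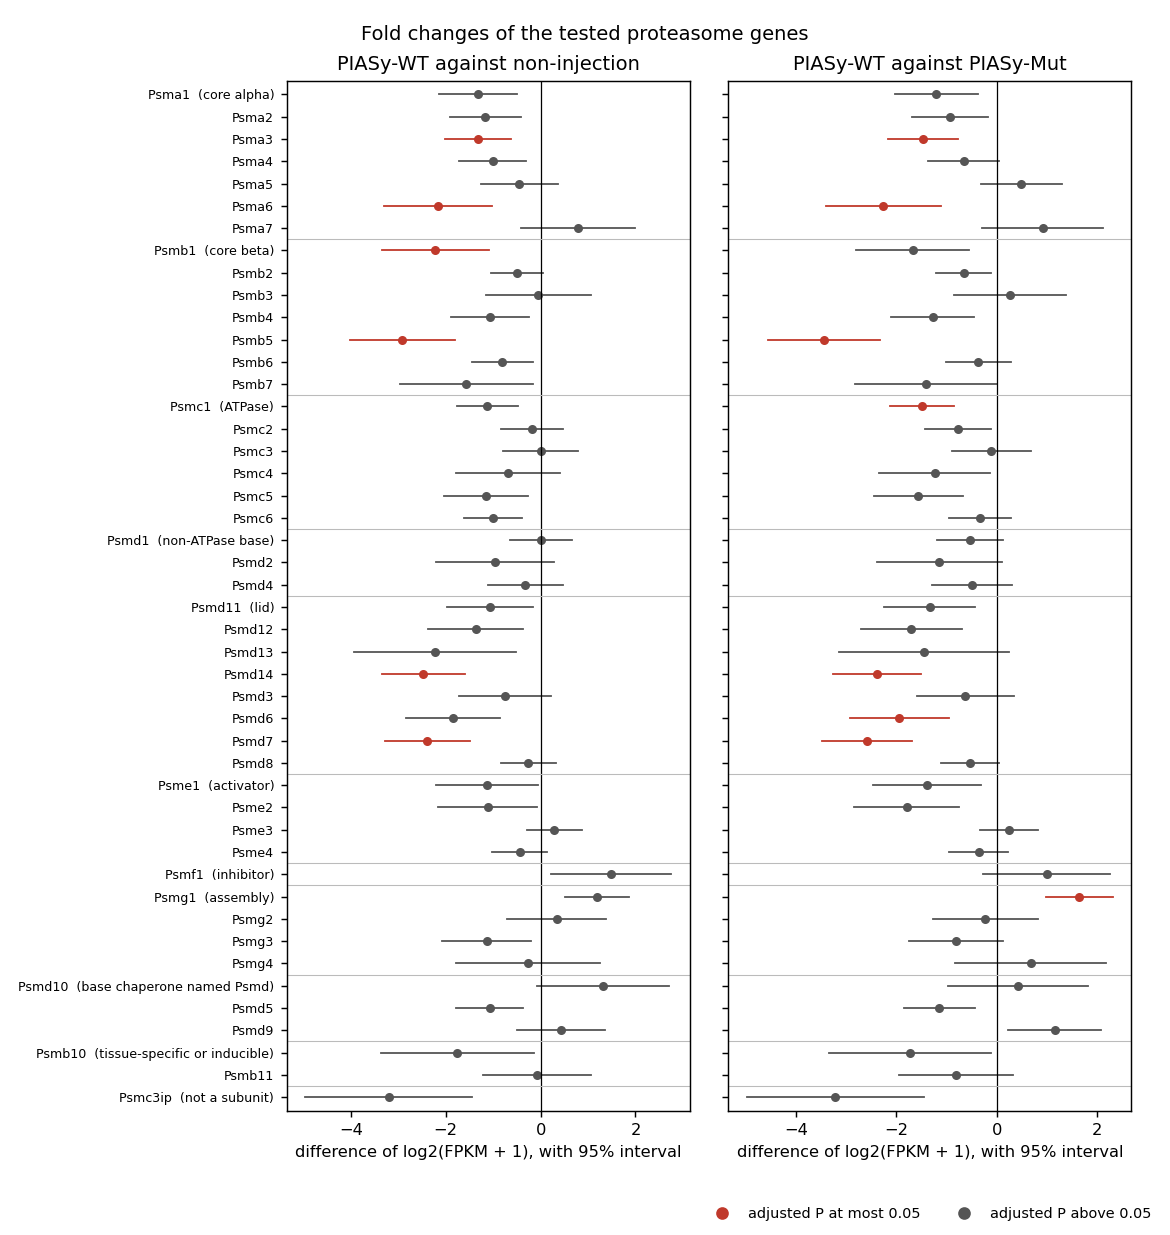
Difference of log2(FPKM + 1) in PIASy-WT against non-injection (left) and against PIASy-Mut (right) for 46 tested genes in order of their role, with the 95% interval from limma as a line; Psme2b, at 3 fragments or fewer in every library, is left out. Red marks an adjusted P of at most 0.05, and all 8 lid genes lie left of 0 in both panels, although Psmd8 moves above 0 in both under upper quartile scaling and in the left one under quantile scaling.

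In the alpha ring, 2 of the 7 constitutive genes fell in each comparison, beside 5.76% and 6.01% of all genes, and 0 rose, beside 1.03% and 0.82%. Psma6 (mm10 chromosome 12, 55384222 to 55418454, plus strand) had FPKM values of 175 and 257 (non-injection), 361 and 142 (PIASy-Mut) and 44.0 and 49.4 (PIASy-WT). Both PIASy-WT libraries lay far below the lowest of the others, and the PIASy-Mut pair was widely spread. The log2 fold changes were -2.16 from non-injection (standard error 0.47, adjusted P=0.0498) and -2.26 from PIASy-Mut (adjusted P=0.0460), the order used for pairs of values from here on. Psma3 (chromosome 12, 70974621 to 70996347, plus strand), another subunit of the ring, was at 43.7 and 42.2, 51.3 and 44.5, and 13.4 and 20.3. The 4 non-injection and PIASy-Mut libraries lay close together here. Its log2 fold change was -1.33 (standard error 0.29, adjusted P=0.04998) and -1.48 (adjusted P=0.0403). In a fit with the replicate number as a block, neither Psma6 nor Psma3 passed in either comparison. An opposite-strand transcript, 3110056K07Rik, overlaps Psma3 and had 55 and 27, 28 and 7, and 10 and 12 fragments. Of the 50-base stretches of Psma3, 15.4% occur in a pseudogene, so its level is uncertain.

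The other alpha genes passed neither test. Psma1 had log2 fold changes of -1.31 and -1.20 (adjusted P=0.0703 and 0.0840), Psma2 of -1.16 and -0.93, and Psma4 of -1.01 and -0.66. All 3 had both PIASy-WT libraries below the other 4. Psma7 (0.79 and 0.91) differed in sign from the rest of the ring in both comparisons and Psma5 (-0.45 and 0.49) in that with PIASy-Mut, although they are constitutive subunits as well. Psma7 was at 10.7 and 14.1, 6.62 and 18.7, and 26.0 and 18.7, with the higher PIASy-Mut library at nearly the level of the lower PIASy-WT library. Of the 50-base stretches of Psma5, 49.96% occur in 3 other genes, most of them in the pseudogene Gm8394, and the antisense RNA 1700010K24Rik overlaps it, so its values are uncertain. Psma8, the testis-specific alpha subunit, had 5 fragments in PIASy-Mut 1 and 0 in the other 5 libraries.

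In the beta ring, the gene of the chymotrypsin-like site showed the largest fitted decrease of any proteasome subunit tested, on the scale of log2(FPKM + 1). By mean FPKM the lid gene Psmd13, at no more than 2 fragments in PIASy-WT, was 21.2-fold below non-injection and 13.7-fold below PIASy-Mut. Psmb5 (ENSMUSG00000022193.7, mm10 chromosome 14, 54614119 to 54618022, minus strand) had FPKM values of 18.8 and 23.6 (non-injection), 37.7 and 25.5 (PIASy-Mut) and 3.36 and 0.968 (PIASy-WT). These come from 23 and 24, 35 and 20, and 4 and 1 fragments, so the PIASy-WT levels rest on very few reads. The mean FPKM of PIASy-WT was 9.80-fold below that of non-injection and 14.6-fold below that of PIASy-Mut. Its log2 fold change was -2.91 (standard error 0.46, adjusted P=0.0311) and -3.45 (adjusted P=0.0240). Of its 50-base stretches 54.1% occur in other genes, mainly in the pseudogene Gm3375, which had 31 and 22, 34 and 18, and 3 and 0 fragments in the same libraries. Reads that match Psmb5 and Gm3375 equally are left out of counts of uniquely mapped reads, so the level of Psmb5 is uncertain. The counts of both genes were low in the same PIASy-WT libraries.

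The genes of the other protease sites did not pass the test. Psmb6, of the caspase-like site, was at 70.9 and 52.9, 46.6 and 43.5, and 31.4 and 38.1, with log2 fold changes of -0.81 (adjusted P=0.114) and -0.37 (adjusted P=0.416). The fold change against PIASy-Mut turned above 0 under quantile and upper quartile scaling. Psmb7, of the trypsin-like site, was at 14.1 and 11.9, 20.4 and 6.37, and 5.29 and 2.54, with -1.57 (adjusted P=0.144) and -1.41 (adjusted P=0.179). For both Psmb6 and Psmb7 the PIASy-WT libraries were below the other 4, by a small margin against the library PIASy-Mut 2. Psmb1 (chromosome 17, 15475721 to 15498276, minus strand), a beta subunit without a protease site, was at 207 and 265, 211 and 122, and 74.3 and 32.8. It fell against non-injection (log2 fold change -2.22, standard error 0.46, adjusted P=0.0462) and had -1.68 against PIASy-Mut (adjusted P=0.0820). Psmb4 had -1.07 and -1.28, Psmb2 -0.49 and -0.66, and Psmb3 -0.05 and 0.26, none of them past the test.

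Of the inducible and tissue-specific beta forms, Psmb10 had 3 to 30 fragments per library and the others at most 6. In immune cells, Psmb8, Psmb9 and Psmb10 replace Psmb5, Psmb6 and Psmb7. Psmb8 had 0 fragments in every library and Psmb9 at most 4, where 3 fragments was taken as the limit of detection per library and covers counting error only. Psmb10 was at 6.02 and 14.0, 17.0 and 4.71, and 2.66 and 1.53, with log2 fold changes of -1.75 and -1.74 (adjusted P=0.151 and 0.155). Both of its PIASy-WT libraries were the lowest, at 6 and 3 fragments. Psmb11, the thymus form, had at most 6 fragments in any library and at most 3 in PIASy-WT. Its log2 fold change from PIASy-Mut was -0.82 (interval from -1.96 to 0.33, adjusted P=0.317 by limma). Non-injection had 0 and 5 fragments of Psmb11, and no decrease from either group is shown. Psmb11 lies 3410 bases from Psmb5 on the opposite strand, and Psmb8 and Psmb9 are neighbours as well, 9956 bases apart.

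In the lid, 2 of 8 genes fell against non-injection (5.76% of all genes) and 3 of 8 against PIASy-Mut (6.01% of all genes), and the FPKM of all 8 was lower in both PIASy-WT libraries than in the other 4 (24.4% of all genes). Under upper quartile scaling 7 of the 8 had fold changes below 0 in each comparison, Psmd8 being the exception. Psmd14 (chromosome 2, 61711694 to 61800376, plus strand), the enzyme that cuts the ubiquitin chain from the substrate, had FPKM values of 50.4 and 55.8 (non-injection), 68.4 and 36.6 (PIASy-Mut) and 9.90 and 7.71 (PIASy-WT). The PIASy-WT pair was tight and well apart from the rest. Its log2 fold change was -2.47 (standard error 0.36, adjusted P=0.0292) and -2.39 (adjusted P=0.0273), a 6.03-fold and 5.96-fold lower mean FPKM. Psmd7 (chromosome 8, 107580381 to 107588464, minus strand), the partner with which Psmd14 forms a heterodimer, was at 73.6 and 67.3, 113 and 57.8, and 14.3 and 11.2. As for Psmd14, PIASy-Mut 1 was the highest library and PIASy-Mut 2 the lowest outside PIASy-WT. Its log2 fold change was -2.39 (standard error 0.37, adjusted P=0.0300) and -2.58 (adjusted P=0.0252). No other gene shares a 50-base stretch with Psmd7, and only 0.854% of those of Psmd14 are shared.

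Psmd6 (chromosome 14, 14112174 to 14120984, minus strand), a scaffold subunit of the lid, was at 46.9 and 66.3, 85.8 and 41.0, and 16.2 and 13.4. It fell against PIASy-Mut (log2 fold change -1.94, standard error 0.41, adjusted P=0.0475) and missed the limit against non-injection (-1.85, adjusted P=0.0517). The remaining lid genes passed neither test. Psmd12 was at -1.37 and -1.70 and Psmd11 at -1.07 and -1.34. Psmd3 (-0.76 and -0.63) and Psmd8 (-0.26 and -0.54) had the smallest differences of the lid. Psmd13 had 17 and 22, 19 and 2, and 2 and 0 fragments. With PIASy-WT set to the FPKM of 3 fragments per library, non-injection was 6.55-fold and PIASy-Mut 4.25-fold higher. These ratios take the low counts of the other groups as exact, and PIASy-Mut 2 was also at 2 fragments. The intervals of the log2 fold changes of Psmd13 ran from -3.93 to -0.53 and from -3.15 to 0.25 (adjusted P=0.105 and 0.240 by limma). The medians of the lid were -1.61 and -1.58, those of the constitutive alpha genes -1.16 and -0.93 and those of the constitutive beta genes -1.07 and -1.28. Under upper quartile scaling they were -1.19 and -1.18 (lid), -0.74 and -0.34 (alpha) and -0.66 and -0.70 (beta).

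**Figure D4:**
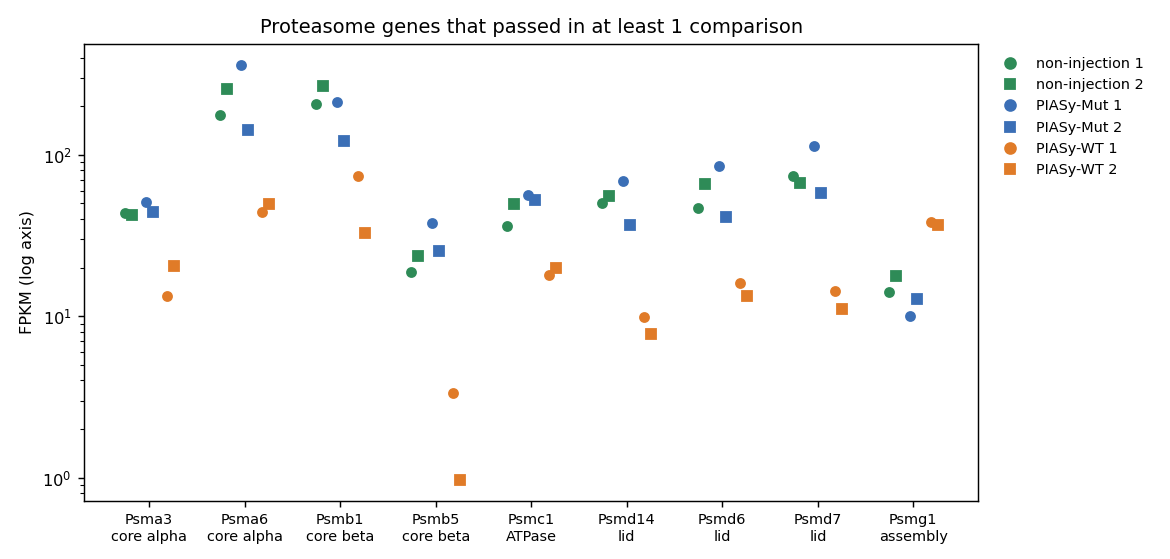
FPKM (log axis) in each of the 6 libraries for the 9 proteasome genes that passed in at least 1 comparison; circles are replicate 1 and squares replicate 2. Both PIASy-WT libraries are the lowest for 8 genes and the highest for Psmg1, and Psmb5 reaches 3.36 and 0.968.

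Of the 6 ATPase and 3 non-ATPase genes of the base, 1 fell against PIASy-Mut (6.01% of all genes) and 0 against non-injection (5.76% of all genes). Psmc1 (chromosome 12, 100110154 to 100123405, plus strand), an ATPase that helps to open the gate of the core, was at 36.0 and 49.4, 56.6 and 52.8, and 18.0 and 19.8. It fell against PIASy-Mut (log2 fold change -1.49, standard error 0.26, adjusted P=0.0343) and missed the limit against non-injection (-1.12, adjusted P=0.0591). The ATPase ring was uneven. Psmc5 was at -1.15 and -1.57, Psmc6 at -1.00 and -0.34 and Psmc4 at -0.69 and -1.24. Psmc3 was at 0.00 and -0.11 with intervals from -0.79 to 0.79 and from -0.90 to 0.68, and Psmc2 was at -0.18 and -0.78. Median log2 fold changes of the ATPases were -0.84 and -1.01 (-0.45 and -0.47 under upper quartile scaling), and 4 of the 6 were below 0 in each comparison under either scaling, against 5 and 6 without it. The non-ATPase base genes had medians of -0.32 and -0.54, which turned to 0.10 and 0.03 under upper quartile scaling. Psmd1, a large scaffold, was at 0.00 and -0.54, the ubiquitin receptor Psmd4 at -0.32 and -0.50 and the scaffold Psmd2 at -0.96 and -1.14.

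Of the 4 Psmg assembly factors, 1 rose against PIASy-Mut (0.82% of all genes) and 0 against non-injection (1.03% of all genes). Psmg1 (chromosome 16, 95979933 to 95990960, minus strand), which pairs with Psmg2 as a chaperone of the alpha ring, had FPKM values of 14.2 and 17.8 (non-injection), 10.1 and 12.8 (PIASy-Mut) and 38.2 and 36.9 (PIASy-WT), from 26 and 27, 14 and 15, and 68 and 57 fragments. Both PIASy-WT libraries were above the other 4, with little spread in any group. It rose against PIASy-Mut (log2 fold change 1.64, standard error 0.28, adjusted P=0.0315, a 3.28-fold higher mean FPKM) and missed the limit against non-injection (1.19, adjusted P=0.0568). No other gene overlaps Psmg1 or shares a 50-base stretch with it. Its partner Psmg2 was at 10.4 and 22.5, 22.9 and 23.8, and 24.9 and 15.6, and PIASy-WT overlapped both other groups. Psmg3 (-1.14 and -0.81) and Psmg4 (-0.27 and 0.67) passed neither test, and Psmg4 had only 2 to 15 fragments.

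The chaperones of the base that carry Psmd names did not move as a set. Psmd5 was at 24.9 and 26.2, 32.2 and 22.4, and 10.5 and 12.8, with -1.08 and -1.14 (adjusted P=0.0780 and 0.0693). Psmd10 was at 8.48 and 16.9, 13.2 and 40.6, and 33.9 and 29.0, with 1.31 and 0.41 (adjusted P=0.196 and 0.675). For Psmd10 both PIASy-WT libraries were above non-injection but below the library PIASy-Mut 2, whereas for Psmd5 both PIASy-WT libraries were lowest. Psmd9 was at 0.43 and 1.15 and shares 24.9% of its stretches, mostly with an overlapping gene on the opposite strand.

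No activator or inhibitor gene passed. Psme1 and Psme2, which form an interferon-inducible cap of the core and lie 5911 bases apart on chromosome 14, are described together. Psme1 was at 7.30 and 8.01, 10.5 and 8.31, and 1.71 and 4.73 (log2 fold changes -1.13 and -1.40, adjusted P=0.160 and 0.108). Psme2 was at 10.8 and 9.52, 25.3 and 11.1, and 3.85 and 4.44 (-1.12 and -1.79, adjusted P=0.156 and 0.0607). In both genes the PIASy-WT libraries were below the other 4, from 5 to 12 fragments. Psme2 and the near-copy Psme2b share sequence, 28.3% of the stretches of Psme2, and Psme2b had at most 2 fragments. The nuclear activator Psme3 was at 33.8 and 36.9, 36.5 and 36.6, and 39.9 and 47.2 (0.29 and 0.24). Psme4, which caps the core and is linked to the turnover of acetylated histones, was at 88.9 and 75.7, 84.6 and 71.2, and 62.9 and 57.3 (-0.44 and -0.36). With 520 to 1016 fragments in every library, Psme4 was the most deeply counted of the proteasome genes, and its interval against non-injection ran from -1.02 to 0.14. Against PIASy-Mut its fold change turned above 0 under upper quartile scaling. The inhibitor Psmf1 was at 11.2 and 14.0, 10.4 and 30.8, and 30.0 and 45.0 (1.48 and 0.99, adjusted P=0.132 and 0.280), with PIASy-Mut 2 within the range of PIASy-WT.

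Psmc3ip, the recombination factor outside the complex, had a larger fitted decrease against non-injection than any subunit. It was at 84.3 and 119, 184 and 55.5, and 18.3 and 5.26, with log2 fold changes of -3.20 and -3.22 (standard error 0.72, adjusted P=0.0544 and 0.0540). The PIASy-WT libraries were the lowest, but the spread within PIASy-Mut and PIASy-WT was wide and the gene passed in neither comparison. It did pass in 6 of 17 alternatives against non-injection and in 4 against PIASy-Mut, among them a replicate block and voom on recovered fragments, with adjusted P from 0.00266 to 0.239 and from 0.00256 to 0.210 by limma. Genes that passed the main test also passed in only part of the 17. Psmd6 did so in 3 against PIASy-Mut, and Psma3 and Psma6 in 5 against non-injection. Psmb5, Psmd7 and Psmd14 passed in 11 against non-injection. Psmc3ip overlaps Mlx on the opposite strand, which shares 17.6% of its stretches.

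Genes that act with the proteasome were taken from a list of 25, of which 24 were tested. Of these, 1 fell against non-injection, 1 fell against PIASy-Mut and 0 rose. Each is 4.17% of the list, beside the 5.76% and 6.01% of all genes, and 1 gene is too few to set the list apart from them. Fold changes were below 0 for 13 of the 24 against non-injection (49.1% of all genes) and for 16 against PIASy-Mut (51.3% of all genes). Their medians were -0.10 and -0.29. Zfand5, which binds and activates the proteasome, was at 69.4 and 75.2, 67.7 and 46.3, and 27.9 and 25.4 (log2 fold changes -1.41 and -1.05, adjusted P=0.0414 and 0.0726). Rps27a, which encodes ubiquitin fused to a ribosomal protein, was at 48.0 and 55.6, 89.4 and 52.4, and 22.6 and 22.1 (-1.18 and -1.57, adjusted P=0.0767 and 0.0435). Both genes had their lowest values in both PIASy-WT libraries. The polyubiquitin gene Ubb was at 0.42 and 0.22, and the ubiquitin receptor Adrm1 was at -1.65 and -2.03 (adjusted P=0.102 and 0.0670). Nfe2l1, the transcription factor that drives proteasome genes when the protease is impaired, was at 4.04 and 6.01, 7.12 and 6.96, and 5.13 and 4.64, with -0.02 and -0.45. PIASy-WT and non-injection overlapped, both PIASy-Mut libraries were higher, and the interval of PIASy-WT against non-injection ran from -0.84 to 0.81.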

How the data were processed

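RNA-seq was done on 6 pools of 5 two-cell embryos with the SMART-Seq v4 and Nextera XT kits. Per the submitters' notes, reads were trimmed with Trim Galore, aligned to mm10 with STAR and counted with featureCounts on uniquely mapped reads. The authors deposited FPKM values for 53023 genes. The annotation release and the use of strand are not given in the sources used here, so overlapping genes are uncertain. FPKM times gene length gave whole fragments for 100% of values (tolerance 0.01), from which depth was taken. The authors' spike-in RNA has 0 entries in the table.

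Differences of log2(FPKM + 1) were tested with limma 3.58.1 (R 4.3.3; mean-variance trend, 6 libraries) over the 16100 genes that reached an FPKM of 1 in 2 or more libraries, with 3 residual degrees of freedom and Benjamini-Hochberg adjustment over all of them. The pseudocount of 1 understates the change of low genes. The test planned for counts was not used because the table holds FPKM. The 17 alternatives changed the pseudocount, filter, scaling, variance settings, libraries, block or unit. An exact permutation test of 2 against 2 cannot pass, and none was run. The procedure was tested on simulated data. Of the 50 genes, 3 failed the filter (Psma8, Psmb8 and Psmb9).

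The genes and lists were chosen with earlier results of these data known. Named were genes that passed, the highest and lowest of each subcomplex, and the catalytic, inducible and tissue-specific forms. Other genes were added as examples after their values were seen. Some genes of the list of genes that act with the proteasome are not reported here. Sequence sharing is the percent of 50-base stretches of the GENCODE M21 transcripts of a gene also found in another gene, for 50 genes, of which 42 matched by versioned identifier. Promoters were matched by symbol to RefSeq sequences.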

Additional observations from a re-analysis of the deposited data

How the results depend on the processing

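In all 17 alternatives, each of the 9 genes that passed kept the sign of its fold change in both comparisons with PIASy-WT. Against non-injection, where 6 genes fell, the count was 3 with a pseudocount of 0.1, 0 without a filter, 13 with FPKM of at least 5, 3 under quantile and 3 under upper quartile scaling, 0 without the mean-variance trend, 18 with only the groups compared and 18 with voom on recovered fragments. The genes that rose numbered 1 with FPKM of at least 5, 1 under quantile and 1 under upper quartile scaling, and 2 with only the groups compared and with voom, in place of 0. Of all genes, 332 of 8282 rose with FPKM of at least 5, in place of 166 of 16100. Under quantile and upper quartile scaling 233 and 461 rose, with only the groups compared 1047 of 14448 and with voom 867 of 10193. Against PIASy-Mut, where 7 fell, the count was 2 without a filter, 15 with FPKM of at least 5, 3 under either scaling and without the trend, 0 with only the groups compared and 17 with voom. The 1 gene that rose became 0 without a filter, without the trend and with only the groups compared, and 2 with voom. Of all genes, 132 of 16100 rose in the main fit, 11 of 27826 without a filter and 90 without the trend. With only the groups compared 0 of 14510 rose, and with voom 605 of 10193. When 1 library was left out, the median log2 fold change of the proteasome genes stayed below 0. It ran from -1.01 to -0.90 with non-injection as the reference, beside -0.05 to 0.04 for all genes. With PIASy-Mut as the reference it ran from -1.20 to -0.64, beside -0.08 to -0.02 for all genes. In these fits the lone library of a group is assumed to vary like the others. The counts of 13, 15, 17 and 18 genes that fell include Psmc3ip, which is not a subunit. Calls over all genes shifted as well, from 928 of 16100 lower against non-injection to 773 with a pseudocount of 0.1, 154 of 27826 without a filter, 1441 of 8282 with FPKM of at least 5, 256 without the trend, 1998 of 14448 with only the groups compared and 1941 of 10193 with voom, and from 968 lower against PIASy-Mut to 243 without a filter, 1483 with FPKM of at least 5, 464 without the trend, 0 of 14510 with only the groups compared and 1913 with voom. The cause of these shifts was not tested. PIASy-Mut against non-injection had 0 proteasome genes in all alternatives. Of the named genes' fold changes under alternatives, 125 no longer passed and 19 newly passed.

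The deviations of libraries with the same replicate number correlated at 0.0037, 0.085 and 0.064 over 16100 genes. With 2 libraries per group, these values cannot show whether such libraries shared a day or parents. Under a replicate block, 5 genes fell in each of the comparisons, of which 4 were proteasome genes and 1 was Psmc3ip. Psma3 and Psma6 lost their calls in both and Psmd6 its call against PIASy-Mut. Under the block 0 rose from non-injection and 1 from PIASy-Mut, where 719 and 799 of all 16100 genes fell and 89 and 67 rose. Depth limits the low genes most. Besides the genes at or near 0 in all groups, Psmb5, Psmb10, Psmb11, Psmd13 and Psmg3 had at most 6 fragments in each PIASy-WT library.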
